A study of Mus musculus with 6 samples.

Results

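Semaphorins, plexins, ephrins and Eph receptors are cell-surface and secreted proteins that guide moving cells and growing axons. Their genes were taken from the deposited FPKM table by symbol: protein-coding genes whose names begin with Sema3 to Sema7, Plxn, Epha, Ephb, Efna or Efnb in the GENCODE M21 mouse annotation. This gave 51 genes of the 21959 in the table, namely 20 semaphorins, 9 plexins, 14 Eph receptors and 8 ephrins. FPKM are fragments scaled to exon length and to the depth of the library, so levels of different genes can be set side by side per unit of length. The 6 libraries were made from mouse cells labelled neutrophil in tumours of Hepa1-6, a hepatoma line, with 3 libraries named GPR35-negative and 3 named GPR35-positive for the G protein-coupled receptor GPR35. Strain, sex, age, tumour site, treatment, the method of sorting and the animals behind each replicate are details the sources used here do not give. The p-values therefore describe the spread among these libraries, which may be technical.

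The read totals to which the FPKM had been scaled, recovered from the values themselves, were 15742745 to 18314106 per library. Gpr35 was at 1.57 ± 0.398 FPKM in the GPR35-negative and 20.2 ± 1.89 FPKM in the GPR35-positive libraries (SD, n = 3 each). Other cell types differed along with the label. Summed over 12 mature neutrophil markers, of which all 12 were called higher, the GPR35-negative libraries ranged from 834 to 1101 FPKM and the GPR35-positive ones from 9423 to 10330 FPKM. The sum over 10 macrophage and monocyte markers, of which 9 were tested and called higher, went from 37.0 to 50.7 up to 945 to 977 FPKM. All 10 hepatocyte and hepatoma markers were called lower, with sums of 24667 to 25975 FPKM among GPR35-negative and 16418 to 16816 FPKM among GPR35-positive libraries, so liver and hepatoma transcripts were present in every library labelled neutrophil. Dendritic cell markers summed to 2.72-fold more and fibroblast markers to 1.49-fold more in GPR35-positive libraries, and T and NK cell markers, of which Gzma, Gzmb and Lck were called lower, had a summed ratio of 0.671. The dendritic sum, with means of 10.5 and 28.5 FPKM, rested mostly on Ccr7, at 8.92 and 20.2 FPKM. Of its 7 markers, 2 were tested, Ccr7 and Batf3, both called higher, while Flt3 and Zbtb46 overlapped between the groups. Endothelial markers moved both ways: Pecam1 was called higher (3.21 to 4.24 FPKM), Egfl7 and Esam were called lower, Cdh5, Tek, Kdr and Vwf had means of at most 0.222 FPKM that were higher in the GPR35-positive libraries, with Cdh5 at 0 in all GPR35-negative ones, and the summed ratio was 0.867. B cell markers stayed under 0.442 FPKM in sum. In bulk RNA, fewer cells of a type and less RNA per cell cannot be told apart.

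Semaphorins signal mainly through plexins, single-pass receptors that act on the cytoskeleton and on adhesion; class 3 members are secreted and usually need a neuropilin as a co-receptor, while classes 4 to 7 are held at the membrane. Ephrins are membrane-bound ligands, the A class by a lipid anchor and the B class by a transmembrane stretch, and their Eph receptors are tyrosine kinases that signal on contact between cells. In the immune system SEMA4D, also called CD100, is a leukocyte surface protein that can be shed, and in liver and tumours Plexin-B2, EphA2 and EphB4 are best known from epithelial and endothelial cells.

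Sema4d had the largest log2 fold change of the 19 guidance genes tested on log2(FPKM + 1) and was higher in GPR35-positive libraries, while 13 of these 19 were lower. By reads, Sema6d had a larger one (4.69, against 3.14 for Sema4d), but it rests on 4, 2 and 1 reads in the GPR35-negative libraries. Sema6d met the minimum of 10 reads only through the GPR35-positive libraries, so it could be tested by reads only by differing. The test was limma on log2(FPKM + 1) for every gene that reached 1 FPKM in 3 or more libraries, and a call needed an adjusted p under 0.05 over all 10060 genes tested. Of the 51 members, 19 were tested: 2 were higher in GPR35-positive libraries (Sema4d and Plxnc1), 13 were lower and 4 were without a call. Among all genes tested 23.3% were called higher and 45.5% lower (68.8% in either direction), and the median log2 fold change was −0.19, against −0.52 over the 19 members. Of these 19, Plxnc1 reached 1 FPKM only in GPR35-positive libraries and Sema6a, Ephb6 and Plxna1 only in GPR35-negative ones, so that these 4 could pass the filter only by differing. With median-of-ratios scaling, which moved the median of all genes by 0.12 to −0.07, 2731 genes were higher and 3036 lower (47.4% of calls higher, against 33.9% of 2342 higher and 4575 lower as deposited), and 3 members were higher and 13 lower.

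A wider view came from whole reads, since 97.7% of FPKM values, and all values of the 51 members, came out as whole reads per gene within 0.02 reads. With limma-voom on genes that had at least 10 reads in at least 3 libraries, an analysis added after the data had been seen, 32 members were tested: 8 were higher, 19 lower and 5 without a call, beside 24.9% higher and 39.1% lower (64.0% in either direction) among 12276 genes. Sema6d, Sema4f, Epha5 and Plxnb3 passed this minimum only through the GPR35-positive libraries. The remaining 19 members had too few reads. With limma on log2(FPKM + 1) and no filter beyond a value above 0 in 3 libraries, 49 members were tested, 7 higher, 17 lower and 25 without a call, beside 20.3% higher and 26.4% lower (46.7% in either direction) among 17195 genes. Over all 51 members, the GPR35-positive libraries lay wholly above the GPR35-negative ones for 13, wholly below for 20 and overlapped for 18, and among the 19818 genes above 0 such separation was seen in 21.3% upward and 27.4% downward.

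**Figure D1:**
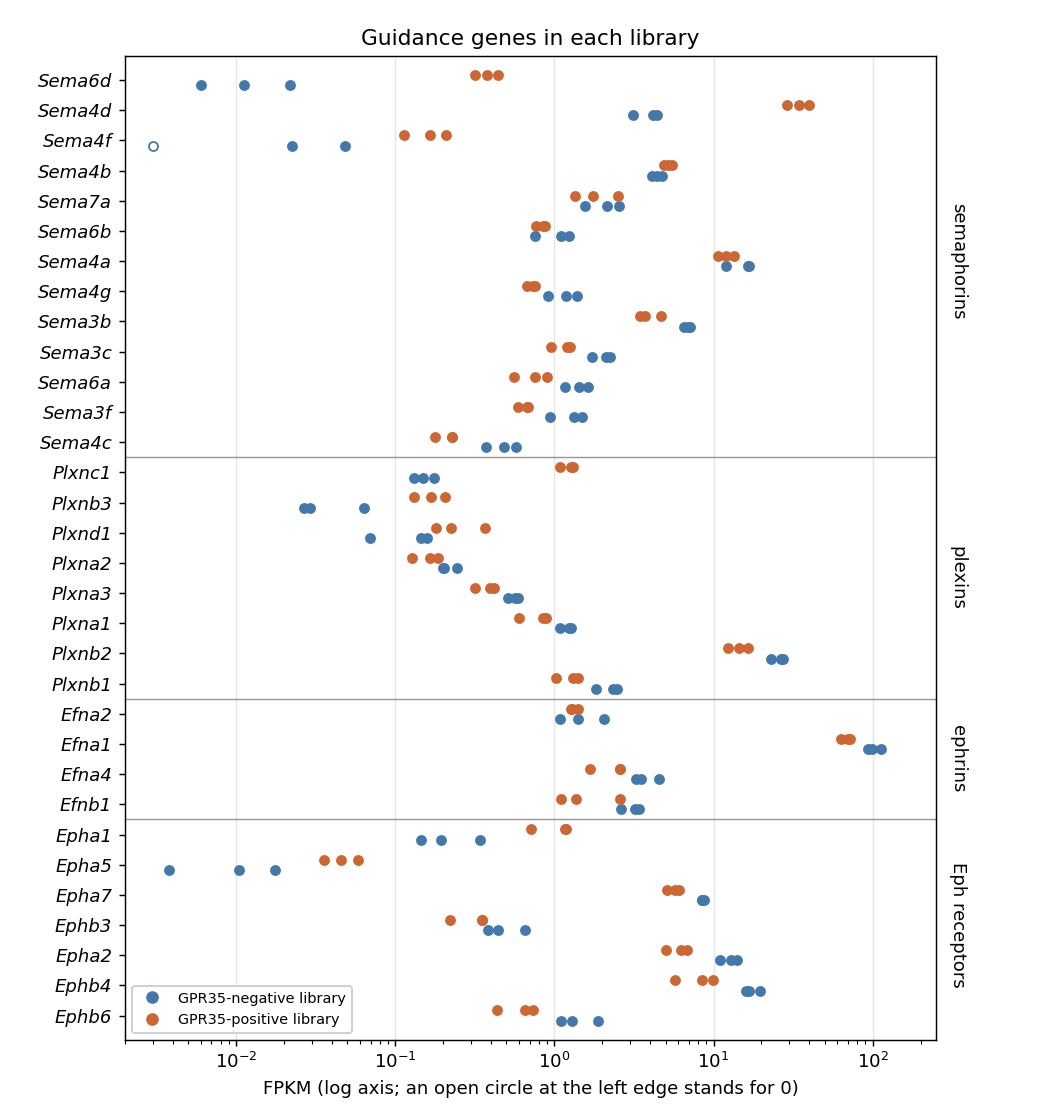
FPKM on a log axis for the 32 members with at least 10 reads in 3 libraries, grouped by family, where each point is a library, blue for GPR35-negative and orange for GPR35-positive, and an open circle stands for 0. Sema4d and Plxnc1 lie far to the right in all 3 GPR35-positive libraries, while Plxnb2, Ephb4, Epha2 and Efna1 lie to the left of all 3 GPR35-negative ones.

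Upstream sequences of 4 members, chosen after their values were seen, are shown for comparison: the 2 genes that were higher, and the most abundant plexin and Eph receptor of the GPR35-negative libraries, which were lower. They are RefSeq windows on GRCm38.p6, 5′ to 3′ on the gene's strand and lie before the listed start, with bases inside annotated exons left out; for a gene with several listed starts the most upstream one was used. Capitals mark AGGAAG, a core bound by PU.1, the ETS-family factor of myeloid cells, on either strand (CTTCCT on the other). Sema4d, a higher gene, is read from chr13:51756803-51756933 on the reverse strand; this listed start lies inside the annotated gene, whose longest transcripts begin farther upstream, and the run stops where an annotated exon begins.
Sema4d: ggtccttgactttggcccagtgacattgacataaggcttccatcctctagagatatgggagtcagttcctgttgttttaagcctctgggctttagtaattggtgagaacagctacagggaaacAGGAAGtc
Plxnc1, the other higher gene, is read from chr10:94944846-94945095 on the reverse strand.
Plxnc1: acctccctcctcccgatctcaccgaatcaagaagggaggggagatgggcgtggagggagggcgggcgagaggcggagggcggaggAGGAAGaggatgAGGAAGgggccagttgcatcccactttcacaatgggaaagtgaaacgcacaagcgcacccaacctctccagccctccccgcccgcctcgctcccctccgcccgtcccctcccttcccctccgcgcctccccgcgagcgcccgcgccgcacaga
Plxnb2, a lower gene and the most abundant plexin, is read from chr15:89180789-89181038 on the reverse strand.
Plxnb2: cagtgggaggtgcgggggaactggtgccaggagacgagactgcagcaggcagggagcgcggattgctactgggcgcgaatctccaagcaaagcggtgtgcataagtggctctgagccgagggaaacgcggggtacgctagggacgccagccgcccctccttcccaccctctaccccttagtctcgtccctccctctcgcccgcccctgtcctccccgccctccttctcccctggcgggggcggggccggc
Ephb4, a lower gene and the most abundant Eph receptor in GPR35-negative libraries, is read from chr5:137349859-137350108 on the forward strand.
Ephb4: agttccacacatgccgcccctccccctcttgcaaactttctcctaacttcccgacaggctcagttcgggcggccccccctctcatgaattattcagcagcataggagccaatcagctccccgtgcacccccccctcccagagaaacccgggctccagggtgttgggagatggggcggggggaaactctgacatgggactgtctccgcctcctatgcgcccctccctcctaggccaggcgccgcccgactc
The Sema4d run holds AGGAAG in its last bases and the Plxnc1 run holds it at a pair of places, while the Plxnb2 and Ephb4 runs hold none. In 250 bases before the start, AGGAAG occurred in 7 of the 8 members called higher by reads (Sema6d lacked it), in 4 of the 15 lower members with a window, in 1 of 5 without a call and in 4 of 17 not tested. Of those 8, Sema6d, Sema4f, Epha5 and Plxnb3 passed the read minimum only through the GPR35-positive libraries, so they could be tested only by differing. It occurred in 29.2% of all 27025 windows in the table, and its letters were chosen after some of these promoters had been read, so these counts are a description and not a test. The motif shares its GGAA centre with those of other ETS factors. Other motifs searched on both strands were rare in members: the C/EBP pattern TTGCNNAA was in 0 of 8 higher and 1 of 15 lower members (9.55% of all windows), and the HNF1 letters GTTAAT and the HNF4 letters CAAAGTCCA were in none of the 45 members with a window (6.54% and 0.377% of all windows). Median GC content was 58.4% for the higher and 65.6% for the lower members, against 52.0% for all windows. It was 66.0% for members without a call and 63.6% for those not tested, so the lower members were near these. The members without a window were Efnb3, Plxna1, Plxna4, Sema3b, Sema3f and Sema6a.

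Among the 3 class 4 semaphorins tested, Sema4d was higher in GPR35-positive libraries, while Sema4a and Sema4b did not pass the test. Sema4d (ENSMUSG00000021451, chr13:51685529-51793747, reverse strand, GRCm38) measured 4.19, 4.40 and 3.12 FPKM in the GPR35-negative libraries and 28.8, 40.1 and 34.4 FPKM in the GPR35-positive ones. All 3 GPR35-positive values lay above all GPR35-negative ones, with 3783 to 5028 reads behind the former and 377 to 572 behind the latter. The means were 3.90 ± 0.686 and 34.4 ± 5.67 FPKM (SD, n = 3 each), 8.82-fold higher, with a log2 fold change of 2.85 on the log2(FPKM + 1) scale (SE 0.13, limma adjusted p = 2.57e-08). Sema4a, a class 4 ligand of macrophages and dendritic cells as well as other tissues, measured 16.6, 16.8 and 12.0 FPKM in GPR35-negative and 10.7, 13.5 and 11.9 FPKM in GPR35-positive libraries. GPR35-negative replicate 3 fell among the GPR35-positive values, and the difference of −0.30 had a limma adjusted p of 0.0618. Sema4a passed the threshold when that library was left out (−0.45, adjusted p = 0.00257), when GPR35-positive replicate 2 was (−0.38, adjusted p = 0.040) and by limma-voom (−0.32, adjusted p = 0.041). Sema4b, another transmembrane member, measured 4.40, 4.73 and 4.11 FPKM in GPR35-negative and 5.16, 4.86 and 5.52 FPKM in GPR35-positive libraries. These values did not overlap but were close (0.19, limma adjusted p = 0.0704), and Sema4b passed only with median-of-ratios scaling (0.31, adjusted p = 0.011).

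The make-up of the semaphorin family also differed between the groups. Sema4d made up 9.97%, 10.1% and 9.27% of summed semaphorin FPKM in the GPR35-negative libraries and 53.0%, 56.6% and 55.5% in the GPR35-positive ones. The shares of Sema4a (37.8% ± 1.94 and 19.3% ± 0.294), Sema3b (17.4% ± 1.75 and 6.32% ± 0.281) and Sema4b (11.2% ± 0.927 and 8.42% ± 1.4; SD, n = 3 each) were lower in GPR35-positive libraries, but Sema4d is part of the sum they are taken from. Of the semaphorin FPKM other than Sema4d, Sema4a held 41.9% ± 2.33 and 42.9% ± 1.13, which overlapped, Sema3b 19.2% ± 1.84 and 14.1% ± 0.945, and Sema4b 12.4% ± 0.969 and 18.7% ± 2.45. By level, Sema4a ranked first in every GPR35-negative and Sema4d in every GPR35-positive library. The summed level of all 20 semaphorins was 39.8 ± 5.40 and 62.4 ± 8.25 FPKM, 1.57-fold higher, whereas plexins, Eph receptors and ephrins each had lower sums in GPR35-positive libraries. Class 4 genes alone summed to 25.1 ± 3.94 and 52.7 ± 6.93 FPKM and class 3 genes to 10.1 ± 0.545 and 5.80 ± 0.654 FPKM. For 10 such sums the groups were separate each time, with an exact two-sided permutation p of 0.1, the smallest that 3 against 3 libraries can give (0.1 after adjustment over the 10).

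**Figure D2:**
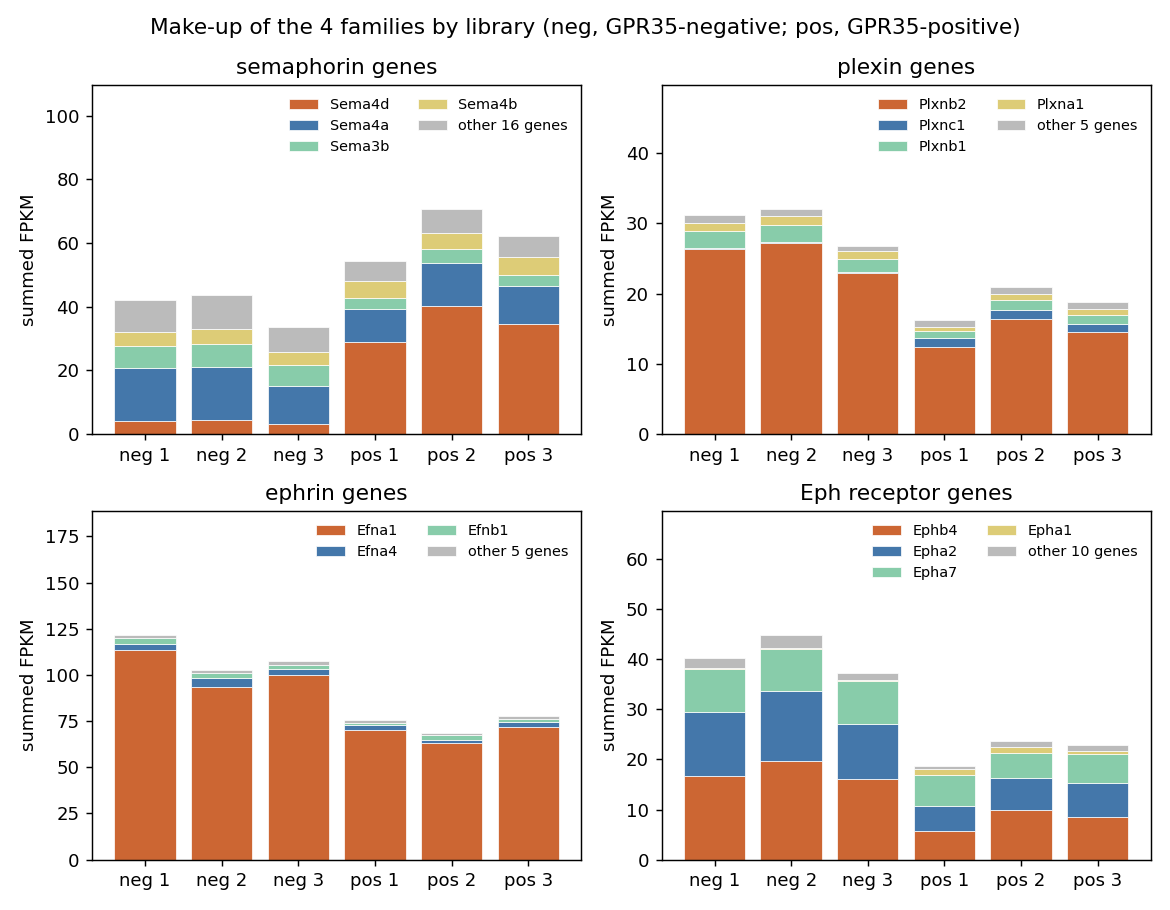
Summed FPKM of each family in each of the 6 libraries, stacked by member, with neg for GPR35-negative, pos for GPR35-positive and grey for the remaining genes of the family. The orange Sema4d block fills 9.27% to 10.1% of the semaphorin bar in GPR35-negative and 53.0% to 56.6% in GPR35-positive libraries, while the plexin, ephrin and Eph receptor bars are lower in all 3 GPR35-positive libraries.

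Sema4d was higher in the same libraries as the neutrophil and macrophage marker sums, and its level was also set against them. Per 1000 FPKM of summed mature neutrophil markers, Sema4d was at 3.81, 4.44 and 3.74 in GPR35-negative and 2.90, 4.26 and 3.33 in GPR35-positive libraries. These values overlapped (means 4.0 ± 0.388 and 3.50 ± 0.692, SD, n = 3 each, exact permutation p = 0.4). Per 1000 FPKM of summed macrophage and monocyte markers it was lower in every GPR35-positive library, at 88.2 ± 8.26 and 35.8 ± 5.64 (exact permutation p = 0.1). Plxnc1 had 0.160 ± 0.0458 and 0.125 ± 0.0164 per 1000 FPKM of neutrophil markers, which overlapped (exact permutation p = 0.3), and 3.54 ± 1.08 and 1.28 ± 0.142 per 1000 FPKM of macrophage markers, which did not (exact permutation p = 0.1). Over 8 such ratios, which include Sema6d and Epha1, the adjusted p was 0.4 and 0.343 for the neutrophil ratios of Sema4d and Plxnc1 and 0.16 for each of their macrophage ratios. Which cells carried the Sema4d and Plxnc1 transcripts was not tested.

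Sema3b and Sema3c, which are secreted, and Sema6a, of class 6, were lower, while the class 6 member Sema6d was higher by reads; Sema6a passed the filter only through the GPR35-negative and Sema6d the read minimum only through the GPR35-positive libraries. Sema3b, a secreted class 3 member described as a tumour suppressor, measured 6.91, 7.10 and 6.52 FPKM in GPR35-negative and 3.46, 4.65 and 3.74 FPKM in GPR35-positive libraries, 1.73-fold lower (log2 fold change −0.67, SE 0.10, limma adjusted p = 0.000261). Sema3c, which acts through Plexin-D1 and neuropilins in heart and vessel development, measured 1.71, 2.22 and 2.13 against 1.25, 1.2 and 0.948 FPKM. Its groups did not overlap (−0.50, limma adjusted p = 0.0011). Sema6a, a transmembrane ligand of Plexin-A2 and Plexin-A4, measured 1.43, 1.63 and 1.17 against 0.559, 0.90 and 0.753 FPKM (−0.47, limma adjusted p = 0.00199). Sema7a, a lipid-anchored member that binds Plexin-C1 and beta-1 integrins, measured 2.15, 2.56 and 1.56 in GPR35-negative and 1.35, 2.51 and 1.74 FPKM in GPR35-positive libraries. The Sema7a values overlapped and the difference of −0.12 had a limma adjusted p of 0.521.

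Of the 9 plexins, the semaphorin receptors, 4 were tested on log2(FPKM + 1), of which 3 were lower and Plxnc1 was higher. Plxnc1 passed the filter only through the GPR35-positive and Plxna1 only through the GPR35-negative libraries, so both could be tested only by differing. By limma-voom 8 plexins were tested, with 3 higher, 4 lower and 1 without a call, beside 24.9% higher and 39.1% lower of all genes. Plxnb2 (ENSMUSG00000036606, chr15:89155549-89180788, reverse strand), a receptor of class 4 semaphorins that epithelial and other dividing cells express widely, measured 26.4, 27.2 and 22.9 FPKM in the GPR35-negative libraries and 12.4, 16.4 and 14.5 FPKM in the GPR35-positive ones. The groups did not overlap, and the mean was 1.77-fold lower (25.5 ± 2.26 and 14.4 ± 2.03 FPKM, SD, n = 3 each; log2 fold change −0.78, SE 0.11, limma adjusted p = 0.000118). Plxnb1, the high-affinity receptor of SEMA4D, measured 2.35, 2.49 and 1.81 FPKM against 1.02, 1.40 and 1.31 FPKM (−0.52, limma adjusted p = 0.00162). Plxna1, which works with neuropilins and with class 6 semaphorins, measured 1.24, 1.27 and 1.08 FPKM against 0.60, 0.845 and 0.887 FPKM (−0.31, limma adjusted p = 0.00948). Of its exon bases, 10.7% also lie in exons of Gm26811, whose reads cannot be told apart there. Plxnc1 (ENSMUSG00000074785, chr10:94790866-94944835, reverse strand), the receptor of SEMA7A on leukocytes and other cells, measured 0.132, 0.148 and 0.175 FPKM in GPR35-negative and 1.31, 1.28 and 1.09 FPKM in GPR35-positive libraries. The lowest GPR35-positive value was several times the highest GPR35-negative one, and the mean was 8.09-fold higher (log2 fold change 0.95 on the log2(FPKM + 1) scale, SE 0.07, limma adjusted p = 1.26e-06). By reads, where no pseudocount of 1 FPKM compresses low values, the Plxnc1 log2 fold change was 2.99 (SE 0.24, limma-voom adjusted p = 2.48e-07). Plxnb2 remained the main plexin in both groups, at 85.0% ± 0.455 and 77.3% ± 1.12 of summed plexin FPKM, while Plxnc1 went from 0.513% ± 0.122 to 6.67% ± 1.24 (SD, n = 3 each).

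Ephb4, Epha2, Epha7 and Ephb6 were the Eph receptors that passed the filter, and each was lower, Ephb6 having passed only through the GPR35-negative libraries. By limma-voom 7 of the 14 Eph receptors were tested, of which 2 were higher (Epha1 and Epha5) and 5 lower. Ephb4 (ENSMUSG00000029710, chr5:137350109-137378669, forward strand), known as the venous partner of ephrin-B2, measured 16.7, 19.6 and 16.1 FPKM in the GPR35-negative and 5.76, 9.99 and 8.47 FPKM in the GPR35-positive libraries. The groups were well apart, with a mean 2.17-fold lower (log2 fold change −1.05, SE 0.16, limma adjusted p = 0.000232). Epha2 (ENSMUSG00000006445, chr4:141301240-141329384, forward strand), an epithelial receptor of ephrin-A1 that is often raised in tumours, measured 12.8, 14.1 and 10.9 FPKM against 5.01, 6.26 and 6.85 FPKM. Its mean was 2.09-fold lower (−0.95, SE 0.12, limma adjusted p = 7.15e-05). Epha7, a receptor best known from the developing brain, measured 8.47, 8.44 and 8.66 FPKM in GPR35-negative and 6.05, 5.11 and 5.74 FPKM in GPR35-positive libraries, with a narrow spread of 8.52 ± 0.118 in the former (−0.52, limma adjusted p = 0.000368). Ephb6, which lacks kinase activity, measured 1.29, 1.88 and 1.09 FPKM against 0.433, 0.730 and 0.651 FPKM (−0.58, limma adjusted p = 0.0018). The summed Eph receptor level was 40.8 ± 3.85 and 21.8 ± 2.67 FPKM (SD, n = 3 each), and Ephb4 held 42.8% ± 1.02 and 36.6% ± 5.69 of it, shares that overlapped between the groups.

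Ephrins were dominated by Efna1, which was lower in GPR35-positive libraries but kept its share. Efna1 (ENSMUSG00000027954, chr3:89271733-89281142, reverse strand), the lipid-anchored ligand of EphA2 first found as a gene induced by tumour necrosis factor in endothelium, measured 113, 93.5 and 99.7 FPKM in GPR35-negative and 70.3, 63.0 and 71.9 FPKM in GPR35-positive libraries. No values overlapped, and the mean was 1.49-fold lower (log2 fold change −0.57, SE 0.09, limma adjusted p = 0.000251). Efna1 held 92.2% ± 0.955 and 92.5% ± 0.722 of summed ephrin FPKM (SD, n = 3 each), with overlapping groups (exact permutation p = 0.6). Efna4, another A-class ligand, measured 3.48, 4.58 and 3.26 FPKM against 2.59, 1.69 and 2.60 FPKM (−0.54, limma adjusted p = 0.0060), and 10.5% of its exon bases are shared with 4731419I09Rik. Efnb1, a transmembrane ligand, measured 3.43, 3.20 and 2.63 FPKM in GPR35-negative and 1.10, 2.59 and 1.376 FPKM in GPR35-positive libraries. GPR35-positive replicate 2 of Efnb1 came within 0.1 FPKM of the lowest GPR35-negative value (−0.64, limma adjusted p = 0.00812). Efna2 measured 1.42, 1.08 and 2.06 FPKM against 1.29, 1.26 and 1.41 FPKM, and the groups overlapped (−0.10, limma adjusted p = 0.491). Across 15 shares of a member in its family, the 7 whose groups did not overlap had an exact permutation p of 0.1, or 0.214 after adjustment.

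Among members that missed the filter of 1 FPKM in 3 libraries, several had more reads in GPR35-positive than in GPR35-negative libraries, though few in all. Sema6d, a transmembrane ligand of Plexin-A1 with known roles in macrophages and dendritic cells, had 4, 2 and 1 reads in the GPR35-negative and 80, 55 and 73 reads in the GPR35-positive libraries. By exact 95% Poisson intervals, for counting error alone, the counts reached at most 10.2 reads in the former and at least 41.4 reads in the latter. Its limma-voom log2 fold change was 4.69 (SE 0.51, adjusted p = 4.55e-06), and per 1000 FPKM of neutrophil markers it was still higher in every GPR35-positive library (0.0128 ± 0.00650 and 0.0383 ± 0.00559, exact permutation p = 0.1, adjusted 0.16), while per 1000 FPKM of macrophage markers the groups overlapped (0.281 ± 0.138 and 0.395 ± 0.0687, exact permutation p = 0.3). Epha1, a receptor expressed in epithelia and T cells, had 23, 13 and 9 reads against 80, 75 and 51 reads, the latter at 0.709 to 1.19 FPKM (limma-voom log2 fold change 2.16, adjusted p = 0.000256). Of its exon bases 6.01% lie in exons of Zyx, and per 1000 FPKM of neutrophil markers Epha1 was lower in every GPR35-positive library (0.227 ± 0.0716 and 0.104 ± 0.0309, exact permutation p = 0.1, adjusted 0.16). Sema4f, with 0, 2 and 4 against 15, 18 and 11 reads, Epha5, with 3, 5 and 1 against 13, 16 and 11 reads, and Plxnb3, with 3, 7 and 3 against 23, 14 and 20 reads, had limma-voom log2 fold changes of 3.0, 2.08 and 2.03. Like Sema6d, Sema4f, Epha5 and Plxnb3 met the read minimum only in GPR35-positive libraries, so all of these could be tested only by differing. Plxnd1, an endothelial and immune plexin, had 20, 18 and 8 against 28, 44 and 24 reads (1.01, limma-voom adjusted p = 0.0393).

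Other members that missed the filter were lower or had no call. Sema4c, Sema3f, Ephb3, Sema4g and Plxna3 were called lower by limma-voom, with log2 fold changes from −1.15 for Sema4c to −0.56 for Plxna3, and Ephb3 was at the edge (adjusted p = 0.0497). Sema6b (−0.29, adjusted p = 0.269) and Plxna2 (−0.43, adjusted p = 0.0983) had no call. The 19 members not tested by reads included ligands that matter as partners: Efnb2, with 1, 3 and 0 against 4, 3 and 12 reads, and Sema3g, with a single read in all. Epha8 had 0 reads in each library, for which the exact 95% Poisson upper limit was 3.69 reads. In all, 34 of the 51 members were detected in every library.

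**Figure D3:**
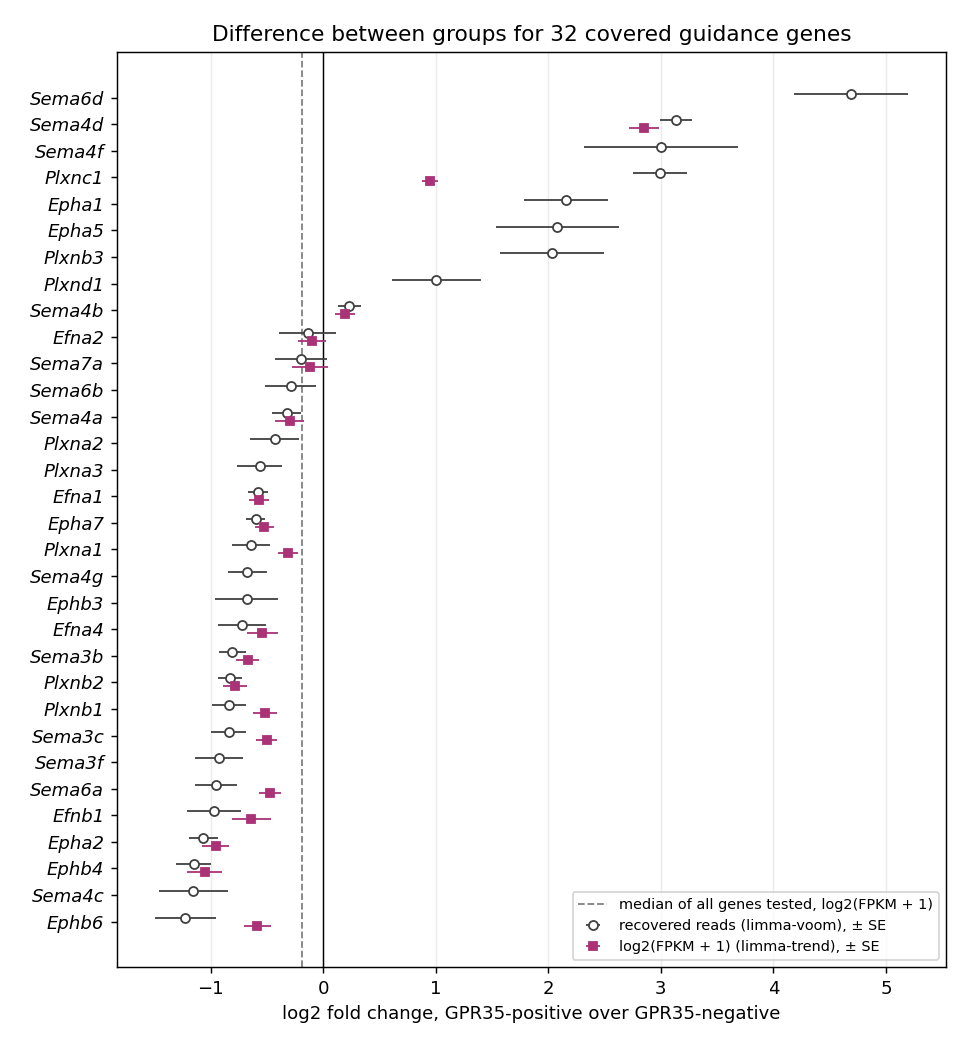
Log2 fold change of GPR35-positive over GPR35-negative libraries with its SE for the 32 members covered by reads, as open circles from limma-voom on reads and as squares from limma on log2(FPKM + 1) where the gene passed 1 FPKM, beside the median of all genes tested at −0.19 (dashed). Sema6d, Sema4d, Sema4f and Plxnc1 lie near or above 3 by reads, and most others lie left of the dashed line.

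The 13 lower members were also expressed relative to the summed hepatocyte and hepatoma markers, which were lower in the same libraries with a ratio of 0.654. Ephb4 per 10000 FPKM of those markers was 6.45, 7.96 and 6.28 in GPR35-negative and 3.45, 6.09 and 5.04 in GPR35-positive libraries. Epha2 was 4.92, 5.71 and 4.26 against 3.0, 3.81 and 4.07. The marker sum rests mostly on Trf, Krt18 and Krt8 (ratios 0.657, 0.648 and 0.670), and single markers ran from 0.454 for Hnf4a, 0.548 for Gpc3 and 0.566 for Alb to 0.779 for Apoa1. The unscaled ratios of Ephb4 and Epha2, 0.462 and 0.479, lie within that spread. Against the sum, these were the 2 members whose groups stayed separate, with ratios of 0.705 and 0.731 (exact permutation p = 0.1 each, 0.52 adjusted over the 13). The other 11 overlapped: Efna1 (1.02), Epha7 (1.01) and Plxna1 (0.990) had ratios near 1, Plxnb2 was at 0.865, and Ephb6, with the lowest ratio of all at 0.648, still overlapped. With 3 libraries a group the permutation test cannot go below 0.1, so neither separation nor overlap on this scale amounts to a call.

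**Figure D4:**
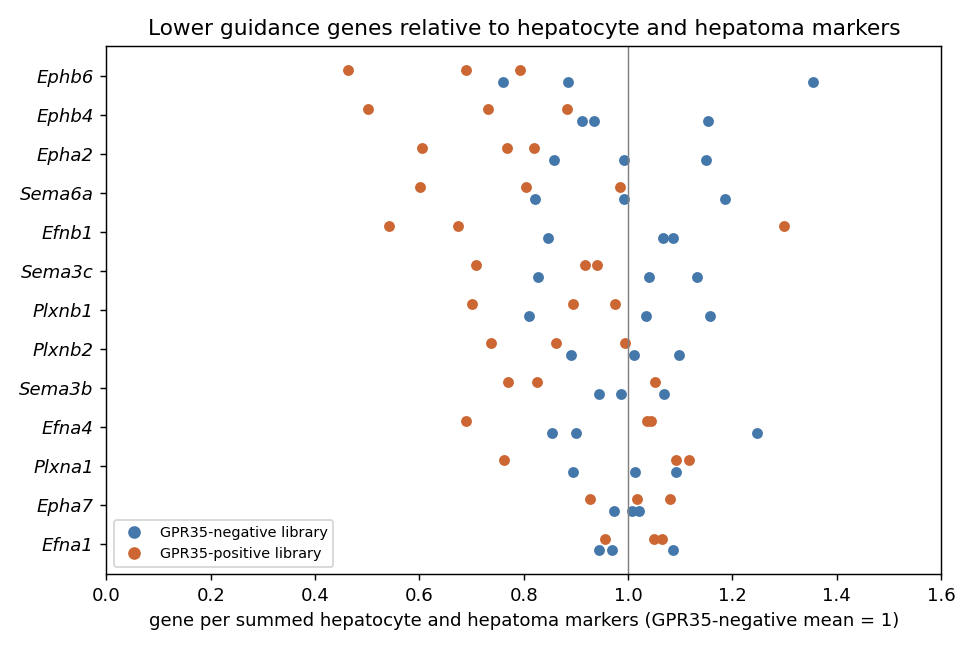
Each of the 13 lower members per summed hepatocyte and hepatoma markers in each library, divided by its GPR35-negative mean, with blue points for GPR35-negative and orange for GPR35-positive libraries. The orange points of Ephb4 and Epha2 all lie left of the blue ones, and those of Efna1, Epha7 and Plxna1 spread around 1.

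Ligands and receptors were then set side by side in 28 textbook pairs of members. For ephrins these held only Efna1 with Epha2, Efna5 with Ephb2, Efnb2 with Ephb4 and Efnb1 with Epha4. Other ephrin and Eph pairs, such as Efna1 with Epha7 or Efnb1 with Ephb4, were left out of the pair counts, which therefore describe mostly semaphorins. Both partners had a mean of at least 1 FPKM in 6 pairs in each group of libraries, though not the same ones: Sema4g with Plxnb2 met this in the GPR35-negative group alone and Sema7a with Plxnc1 in the GPR35-positive group alone. Sema4d and its receptors diverged: the ratio of Sema4d to Plxnb2 was 0.159, 0.162 and 0.136 in the GPR35-negative libraries and 2.33, 2.44 and 2.37 in the GPR35-positive ones. Sema4d was thus the lesser partner in all GPR35-negative libraries and the greater in all GPR35-positive ones. Its ratio to Plxnb1 went from 1.76 ± 0.0347 to 27.7 ± 1.30 (SD, n = 3 each; exact permutation p = 0.1 for each of 4 such ratios, also after adjustment). Plxnc1 to Sema7a went from 0.0772 ± 0.0303 to 0.705 ± 0.243. Efna1 and Epha2, where ligand and receptor were both lower, had a ratio of 8.21 ± 1.37 and 11.5 ± 2.17. Of the 14 pairs in which both partners were covered by reads, 7 had both lower, 0 both higher, 3 a higher ligand with a lower receptor, 2 a lower ligand with a higher receptor and 2 a partner without a call, beside 24.9% higher and 39.1% lower of all genes by limma-voom. Those percentages are of single genes and not of pairs, so they cannot be compared directly with the pair counts. Pairs share genes: 6 of the 7 contain Plxna3, Plxnb1 or Plxnb2, and Sema6d passed the read minimum only through the GPR35-positive libraries. The 3 were Sema4d with Plxnb1, Sema4d with Plxnb2 and Sema6d with Plxna1, and the 2 opposite ones were Sema3c and Sema4a, each with Plxnd1. By limma-voom, Plxnd1 was called at an adjusted p of 0.0393 and Sema4a at 0.041. Sema4a had no call on log2(FPKM + 1) (limma adjusted p = 0.0618). On that scale both partners were tested in 6 pairs. Both were lower in 1 (Efna1 with Epha2), and 2 had opposite calls (Sema4d with Plxnb1 and with Plxnb2), beside 23.3% higher and 45.5% lower of all single genes tested. An abundant receptor could stand beside a ligand that was barely detected: Ephb4, at 17.5 ± 1.88 and 8.08 ± 2.14 FPKM, was paired with Efnb2 at 0.0114 ± 0.0132 and 0.0521 ± 0.0378 FPKM. Efnb1, another B-class ephrin that was not paired with Ephb4 here, was at 3.09 ± 0.409 and 1.69 ± 0.793 FPKM.

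**Figure D5:**
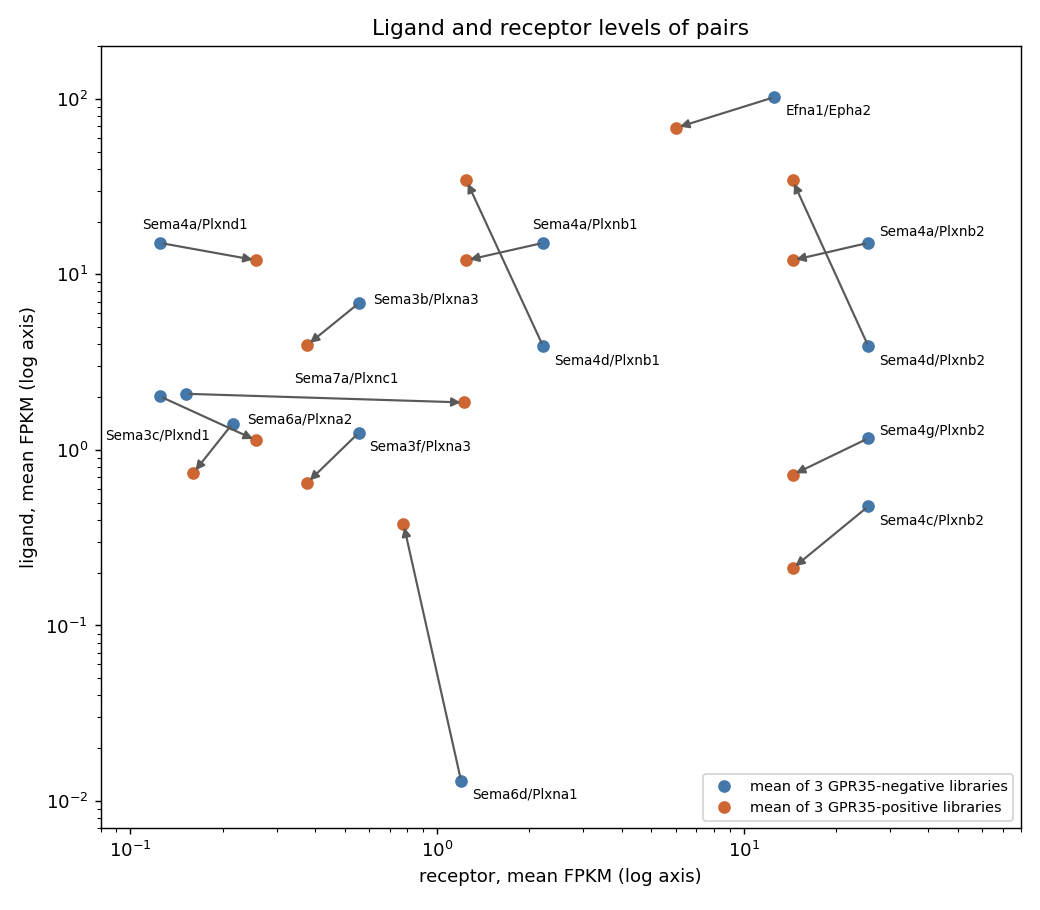
Mean FPKM of ligand against receptor, on log axes, for the 14 pairs covered by reads, with an arrow from the GPR35-negative (blue) to the GPR35-positive mean (orange). Arrows of Sema4d with Plxnb1 and Plxnb2 and of Sema6d with Plxna1 point up and to the left, those of Sema7a with Plxnc1, Sema3c with Plxnd1 and Sema4a with Plxnd1 point to the right, and the remaining arrows point down and to the left.

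Co-receptors and receptors outside the 4 families differed in both directions. Of 15 listed, 7 were tested, and 4 were higher (Nrp1, Cd72, Met and Tyrobp) and 3 lower (Nrp2, Itgb1 and Erbb2), beside the 23.3% and 45.5% of all genes. Cd72, the lymphocyte receptor of SEMA4D, measured 0.0678, 0.121 and 0.0743 FPKM in GPR35-negative and 2.12, 1.77 and 2.30 FPKM in GPR35-positive libraries (log2 fold change 1.49, limma adjusted p = 1.02e-07), and it passed the filter only through the latter. Tyrobp, the adaptor DAP12 through which Plexin-A1 signals in myeloid cells, was at 69.2 ± 15.4 and 754 ± 47.0 FPKM (SD, n = 3 each), 10.9-fold higher beside 10.1-fold higher neutrophil and 21.7-fold higher macrophage marker sums, whose part in this was not tested. Of the neuropilins, Nrp1 went from 0.872 ± 0.140 to 1.49 ± 0.176 FPKM (0.41, limma adjusted p = 0.00214) but passed the filter only through the GPR35-positive libraries, and Nrp2 went from 2.14 ± 0.0881 to 1.42 ± 0.0874 FPKM (−0.38, limma adjusted p = 0.00162). Nrp2 is a co-receptor of SEMA3B and SEMA3F, whose genes were also lower, Sema3f by reads. Erbb2, a kinase that associates with B-class plexins, was at 8.29 ± 1.03 and 3.82 ± 0.780 FPKM (−0.95, limma adjusted p = 0.00011). Met, another kinase partner of Plexin-B1, was at 6.76 ± 0.673 and 8.13 ± 0.203 FPKM (0.24, limma adjusted p = 0.0343) and lost its call in 5 of the 6 fits that left out a library, with adjusted p from 0.0607 to 0.103. Itgb1, the integrin chain that binds SEMA7A, was at 133 ± 19.9 and 105 ± 1.86 FPKM (−0.33, limma adjusted p = 0.013) and lost its call with median-of-ratios scaling (−0.19, adjusted p = 0.159).

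Of 6 proteases tested that cut guidance proteins, 2 were higher, 2 lower and 2 without a call, beside 23.3% higher and 45.5% lower of all genes tested. Furin, the convertase that processes class 3 semaphorins, measured 3.37, 3.36 and 2.67 FPKM against 8.83, 11.3 and 9.76 FPKM (1.41, limma adjusted p = 1.58e-06). Adam17, a sheddase for many surface proteins, measured 4.05, 3.99 and 3.85 FPKM against 8.24, 8.75 and 8.30 FPKM (0.92, limma adjusted p = 2.97e-06). Pcsk6, a convertase related to furin, and Adam10, a sheddase that cleaves ephrins, were lower by −0.45 and −0.29 on the log2 scale (limma adjusted p = 0.0022 and 0.00575), and Adam10 lost its call with median-of-ratios scaling (−0.16, adjusted p = 0.115). Mmp14, the membrane metalloproteinase that can release SEMA4D, measured 15.6, 17.8 and 22.0 FPKM in GPR35-negative and 15.2, 18.5 and 16.0 FPKM in GPR35-positive libraries, which overlapped (−0.14, limma adjusted p = 0.318). Pcsk7 had no call either (0.16, limma adjusted p = 0.216).

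Of 46 intracellular effectors listed, 35 were tested, with 9 higher, 12 lower and 14 without a call (23.3% higher and 45.5% lower among all genes tested) and a median log2 fold change of −0.17, near the −0.19 of all genes. The higher ones with the smallest p were Sdcbp, Grb2, Mical1 and Vav3. Sdcbp, the scaffold syntenin that binds B-class ephrins, was at 122 ± 2.71 and 398 ± 30.5 FPKM (1.70, limma adjusted p = 1.13e-08). Grb2, an adaptor recruited by Eph receptors, was at 6.25 ± 0.702 and 17.2 ± 0.775 FPKM (1.33). Mical1, the oxidase that disassembles actin downstream of A-class plexins, measured 1.07, 1.05 and 0.809 against 4.81, 7.31 and 5.63 FPKM (1.79, limma adjusted p = 7.75e-07). Its relative Mical2 went the other way, from 4.03 ± 0.481 to 2.02 ± 0.470 FPKM (−0.74, limma adjusted p = 0.000418), and was chosen for mention after its values were seen. Vav3, an exchange factor activated by Eph receptors, was at 0.139 ± 0.0650 and 1.53 ± 0.181 FPKM (1.15) and passed the filter only through the GPR35-positive libraries, as did Fyn, another of the 9.

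Other guidance families were little represented. Of 20 netrin, netrin receptor, Slit, Robo, repulsive guidance molecule and draxin genes, 4 were tested, of which 0 were higher and 3 lower, beside 23.3% and 45.5% of all genes tested; Neo1 passed the filter only through the GPR35-negative libraries. Robo1, a Slit receptor, fell by 0.54 (limma adjusted p = 0.000535), Neo1, a receptor of netrins and repulsive guidance molecules, by 0.31 (limma adjusted p = 0.00375) and the netrin receptor gene Unc5b by 0.42 (limma adjusted p = 0.0156). Unc5b lost its call when replicate 1 of the GPR35-negative (adjusted p = 0.059) or of the GPR35-positive group (0.0604) was left out, and by median-of-ratios scaling (0.050). Rgmb, a ligand of neogenin, was at 1.53 ± 0.386 and 1.45 ± 0.254 FPKM and had no call.

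Several members lie close together in the genome without sharing a level. Efna1, Efna3 and Efna4 follow each other on chromosome 3 with gaps of 32.8 kb and 10.4 kb, and their GPR35-negative means were 102, 0.0642 and 3.77 FPKM. Sema3b and Sema3f lie 72.3 kb apart on chromosome 9 and were both lower by reads. Ephb6 and Epha1, 738 kb apart on chromosome 6, had opposite calls by reads, as did Plxna3 and Plxnb3, 557 kb apart on the X chromosome.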

How the data were processed

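Per the labels' protocols, Trizol was used for extraction and an NEBNext Ultra II kit for library preparation. The authors deposited a single table of FPKM for 6 libraries; the submitters' processing notes list DESeq 1.38.3, HTSeq 0.9.1, HISAT2 2.1.0 and fastp 0.22.0 without roles and a human build, GRCh38, although its IDs are mouse Ensembl genes. The annotation and the use of strand in counting were not stated. Symbols, positions and exon lengths came from GENCODE M21 (GRCm38), which held 21902 of the 21959 IDs. With those lengths, 97.7% of FPKM above 0 were whole reads within 0.02 reads; 1 read on 1 kb was worth 0.0546 to 0.0635 FPKM. Mean chi-square per gene between replicates of a group was 4.97 to 19.2, so none was a duplicate.

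Groups were compared with limma 3.58.1 (R 4.3.3; trend, two-sided, Benjamini-Hochberg over all genes, threshold 0.05) on log2(FPKM + 1) for genes with at least 1 FPKM in 3 libraries; folds called log2 are on that scale, which understates changes of low genes, and the others are ratios of mean FPKM. The test was tried on simulated data. Alternatives were a pseudocount of 0.1, no filter, a filter of 5 FPKM, median-of-ratios scaling, limma-voom on recovered reads (2314 genes higher and 4501 lower of 9842), a replicate block and leaving out each library; limma-voom with at least 10 reads in 3 libraries was added after the data had been seen. Sums, shares and ratios per library were compared by exact permutation. Promoters came from RefSeq windows (GRCm38.p6), which matched 45 of the 51 members. The members, lists, pairs and markers were chosen with earlier results of these data known. Every tested member is named, with up to 4 genes per other list by smallest p, the partners Nrp1, Nrp2, Cd72, Itgb1 and Met, and counts of 5 or fewer by name. Intervals cover counting error only.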

Additional observations from a re-analysis of the deposited data

How the results depend on the processing

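Of 236 values of tested members under an alternative, 228 kept their direction and their side of the threshold, 6 passed it anew (5 for Sema4a, 1 for Sema4b) and 2 changed sign without a call: Efna2 (0.049 without GPR35-negative replicate 3, range −0.23 to 0.049 when a library was left out) and Sema7a (0.018 without GPR35-positive replicate 1, range −0.27 to 0.018). Members called higher numbered 7 without a filter, 1 with a filter of 5 FPKM and 8 with limma-voom on at least 10 reads, and 6 were lower with 5 FPKM, where 8 members were tested; these settings change which genes are tested. With 5 FPKM, 1434 genes were higher, and 9 and 8 genes of the partner lists were higher and lower against 15 and 20. With median-of-ratios scaling 3036 genes were lower; the cause was not tested. Rgmb, without a call, changed sign with that scaling (0.038), and its range was −0.13 to 0.077 when a library was left out, above 0 without replicate 3 of either group.

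Leaving out each library gave 2 members higher and 13 to 14 lower, 2176 to 2362 genes higher and 3900 to 4558 lower, and 13 to 18 and 19 to 23 genes of the partner lists. With the replicate block, 2 members were higher and 14 lower, and 2365 genes higher and 4633 lower; Sema4a passed (adjusted p = 0.0443). Same-numbered libraries correlated at −0.00177, 0.40 and −0.0642 in their deviations, and differently numbered ones at −0.373 to 0.248. With so few libraries these values cannot tell whether the numbers pair the samples. Depth limits the 19 members with too few reads, which were not tested by reads.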
